A study of Mus musculus with 60 samples.

Results

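The 10 genes described here form the core of the circadian clock and its output arm in mouse liver: Arntl, Npas2, Per1, Per2, Per3, Cry1, Nr1d1, Nr1d2, Dbp and Tef. They were taken by name as known clock genes. The rule used no measured value, but the genes were proposed with earlier results of these data known. All 10 were among the 17473 genes of the liver table and the 19355 genes of the cell culture table, and 1 of them, Npas2, was among the 480 genes available from a separate table of cells at day 7. After a filter that kept genes with at least 1 FPKM (fragments per kilobase of transcript per 1 M mapped fragments) in at least 3 samples, 9 members were tested in liver, where Npas2 dropped out, and 10 in the cultured cells.

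RNA was sequenced from 60 samples in 20 groups of 3. In vivo, livers were taken from normal mice and at 6 h, 24 h and days 3, 7 and 14 after PHX (partial hepatectomy, the surgical removal of part of the liver), which gave 6 groups named normal liver, PHX-6h, PHX-24h, PHX-D3, PHX-D7 and PHX-D14. In vitro, hepatocytes were grown with the cytokine IL6 into proliferating progenitors called IL6-iHPCs, which were then matured into hepatocyte-like cells called IL6-iMHs. The questions were which genes regenerating liver and IL6-treated cells change, and how far maturation brings the cells back. The labels give strain C57BL/6 and genotype WT for the mice of these groups, and the methods name the substrain C57BL/6J and an age of 8 to 10 weeks. The study describes its single-cell clones as grown from hepatocytes of Albumin-Cre mice with a tdTomato reporter, so the clone-1 groups, labelled WT, may carry these transgenes. Hepatocytes were isolated by perfusion of the liver and sampled directly. IL6-iHPCs were sampled at day 3 and day 14 of the first culture (P0, before any passage), and as passaged lines from mouse-1 and mouse-2 at passage 10 (P10), from clone-1 at passage 20 (P20) and from mouse-1 at passage 35 (P35). Each passaged line was also sampled after maturation as IL6-iMHs. The culture medium for IL6-iHPCs held EGF, HGF, dexamethasone and IL6, and the maturation medium held oncostatin M and more dexamethasone, a synthetic glucocorticoid. The clone-1 line is 1 clone, and the study calls the 3 libraries of each group in the cell table, hepatocytes and first culture included, technical repeats, so p-values for cells measure the spread between such repeats. Whether the 3 livers of a group were 3 separate mice is not stated in the sources used here. The clock time at which livers and cells were collected is also not given there, so time of day at collection and time after PHX cannot be told apart for any value below.

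The circadian clock is a feedback loop of transcription factors that runs in nearly every cell and gives liver metabolism its daily rhythm. In its positive arm, BMAL1 (the product of Arntl) pairs with CLOCK or NPAS2 and switches on genes that carry E-box sequences, among them the Per and Cry genes, whose proteins return to block it. The nuclear receptors REV-ERBα and REV-ERBβ (Nr1d1 and Nr1d2) repress Arntl through RORE elements, and the factors DBP and TEF act on D-box elements of output genes. In mouse liver, Arntl peaks at about the opposite time of day to Nr1d1 and Dbp, so the relation between these genes in a single liver depends on when it was taken.

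The promoters of the 6 members that passed the test at 6 h after PHX are shown because the motifs through which these factors act can be read in them. Each is the 250 bases before the first listed start of the gene, from RefSeq on build GRCm38.p6, on the strand of the gene. Capitals mark matches, on either strand, to the E-box CACGTG, the E-prime-box CACGTT, the D-box TTATGNAA and the RORE core AGGTCA. The windows are chr11:69098699-69098948 for Per1 (plus strand), chr10:85185055-85185304 for Cry1 (minus), chr4:151044666-151044915 for Per3 (minus), chr11:98775378-98775627 for Nr1d1 (minus), chr7:45704997-45705246 for Dbp (plus) and chr15:81802423-81802672 for Tef (plus).
Per1: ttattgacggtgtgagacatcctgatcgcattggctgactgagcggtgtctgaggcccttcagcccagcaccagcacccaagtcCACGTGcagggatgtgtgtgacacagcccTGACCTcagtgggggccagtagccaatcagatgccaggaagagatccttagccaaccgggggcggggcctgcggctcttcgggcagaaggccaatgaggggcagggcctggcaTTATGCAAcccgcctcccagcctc
Cry1: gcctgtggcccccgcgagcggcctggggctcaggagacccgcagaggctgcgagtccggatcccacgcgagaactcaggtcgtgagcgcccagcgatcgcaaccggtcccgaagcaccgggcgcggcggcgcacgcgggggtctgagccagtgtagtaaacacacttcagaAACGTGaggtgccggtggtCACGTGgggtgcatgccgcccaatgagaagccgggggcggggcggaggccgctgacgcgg
Per3: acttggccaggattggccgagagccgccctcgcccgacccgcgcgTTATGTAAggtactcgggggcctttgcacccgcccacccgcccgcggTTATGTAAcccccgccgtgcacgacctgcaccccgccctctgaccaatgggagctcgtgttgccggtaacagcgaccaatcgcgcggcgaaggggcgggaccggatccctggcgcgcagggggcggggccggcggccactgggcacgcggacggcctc
Nr1d1: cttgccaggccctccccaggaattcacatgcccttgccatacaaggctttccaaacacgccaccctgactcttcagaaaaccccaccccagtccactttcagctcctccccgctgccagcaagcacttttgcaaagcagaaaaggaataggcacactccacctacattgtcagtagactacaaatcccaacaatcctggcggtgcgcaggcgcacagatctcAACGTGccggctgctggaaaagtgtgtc
Dbp: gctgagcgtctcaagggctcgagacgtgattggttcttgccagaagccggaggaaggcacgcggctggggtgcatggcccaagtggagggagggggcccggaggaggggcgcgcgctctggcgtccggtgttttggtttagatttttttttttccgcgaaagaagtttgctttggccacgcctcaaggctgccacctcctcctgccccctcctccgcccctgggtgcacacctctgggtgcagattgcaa
Tef: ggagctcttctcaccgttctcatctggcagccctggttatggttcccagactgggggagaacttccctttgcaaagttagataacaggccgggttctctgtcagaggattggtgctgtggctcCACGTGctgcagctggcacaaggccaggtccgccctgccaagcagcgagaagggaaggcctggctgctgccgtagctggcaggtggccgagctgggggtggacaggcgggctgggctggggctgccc
Per1 held an E-box 160 bases, a RORE core 131 bases and a D-box 16 bases before its start, counted from the end of the motif. Cry1 held an E-box at 54 bases and an E-prime-box at 73 bases, Per3 held D-boxes at 197 and 150 bases, Nr1d1 held an E-prime-box at 22 bases and Tef an E-box at 121 bases. The Dbp window held none of these letters. Among all 32851 promoter windows of this length, 6.02% held the E-box, 3.85% the E-prime-box, 3.07% the D-box and 14.0% the RORE core. RefSeq promoters were matched for 9 of the 10 members in 12 windows, and 6 of the 9 held at least 1 motif in a window. These 6 were Per1, Per3, Cry1, Nr1d1, Nr1d2 and Tef, and the second window of Per1 held none. The share of all windows with at least 1 of the motifs was not counted. None of the motif matches in the members' windows overlapped another, and a match describes letters only.

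Depth was 52.04 to 79.22 M reads per liver library and 49.29 to 88.83 M per cell library, so counting error was small for members above 1 FPKM. The hepatocyte markers Alb, Apoa1, Ttr, Hnf4a and Tat were detected in every liver library, and Alb stood at 19000 FPKM or more there. Folds are differences of log2(FPKM + 1) with their standard error (SE), which understates changes of genes near or below 1 FPKM. A gene is called changed where the change reached 2-fold and the adjusted p from limma, fitted over all groups of a table, was under 0.05. With 3 libraries a side an exact permutation p cannot go below 0.1, so significance rests on the spread that limma shares across genes. All 5 comparisons with normal liver use the same 3 control livers.

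Of the 5 times after PHX, 6 h had the most clock genes called. Nr1d1 and Dbp were then at a small part of their normal level, and Per1 and Cry1 were raised. Of the 9 members tested, 6 changed at 6 h, 2 upwards and 4 downwards, where 16.3% of all genes were called, 4.78% upwards and 11.5% downwards. At 24 h 1 rose and 2 fell, where 7.9% of all genes were called, 3.74% upwards and 4.16% downwards. At day 3, 3 rose and 2 fell, where 5.82% of all genes were called, 3.33% upwards and 2.49% downwards. At days 7 and 14, Per1 was the only one of the 9 called, as a rise, where 8.84% and 2.98% of all genes were called, 7.81% and 0.981% upwards and 1.03% and 2% downwards. An unadjusted limma p under 0.05 was reached by 8, 7, 5, 1 and 3 members in the order of the times. The median change of the 9 members was -0.85 at 6 h, where the median of all genes was -0.28. At the later times it lay between -0.19 and -0.04, with all-gene medians of -0.08 to 0.13.

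**Figure D1:**
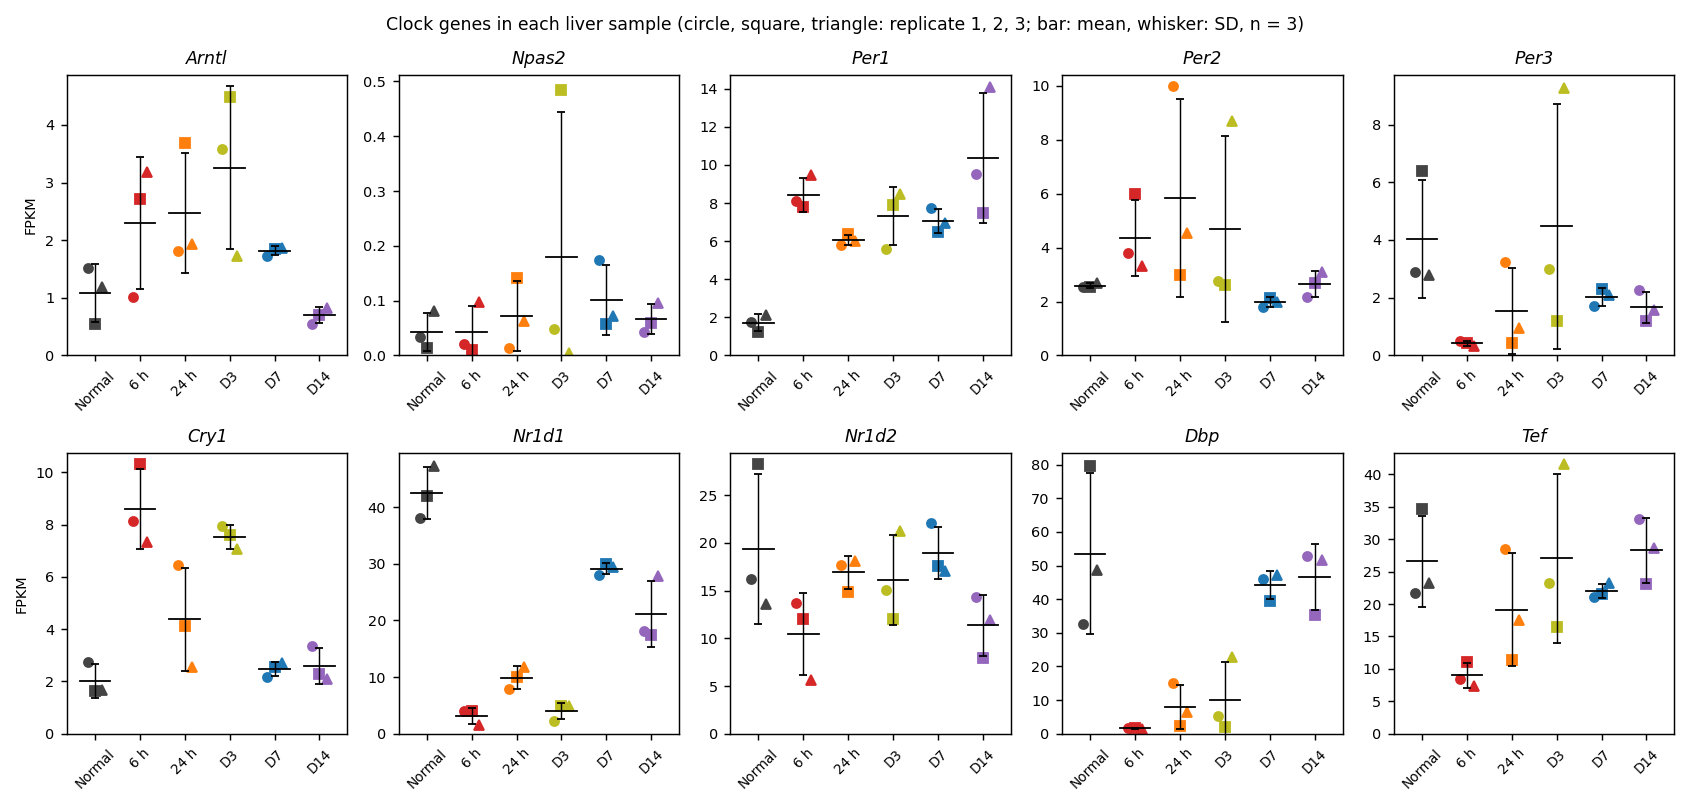
FPKM of each clock gene in the 18 liver libraries, by time after PHX, with 1 point per library, the group mean as a bar and the SD as a whisker (n = 3). The 3 normal livers sit between 38.1 and 47.3 FPKM for Nr1d1 while the 3 livers at 6 h sit between 1.51 and 4.04.

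In the negative arm, Nr1d1 was below normal liver in all 15 PHX livers. It stood at 38.1, 42.0 and 47.3 FPKM in normal liver, at 4.04, 4.0 and 1.51 at 6 h, and at 7.88, 10.1 and 11.8 at 24 h. It was 2.32, 4.85 and 4.85 at day 3, 28.1, 29.9 and 29.5 at day 7, and 18.2, 17.5 and 27.9 at day 14. The lowest normal liver was thus above the highest PHX liver, which was at day 7. Nr1d1 fell by 3.44 on the log2 scale at 6 h (SE 0.27, limma adjusted p = 5.58e-07), by 2.00 at 24 h (adjusted p = 0.000115) and by 3.16 at day 3 (adjusted p = 5.76e-06). The course between these times was not smooth: Nr1d1 was 1.44 higher at 24 h than at 6 h (adjusted p = 0.00107) and 1.16 lower at day 3 than at 24 h (adjusted p = 0.00708). Of the 9 members, Nr1d1 was the only one called in either of these comparisons, where 6.72% and 3.72% of all genes were called. Later neighbouring times were not compared. The difference between 24 h and day 3 lost its call without PHX-D3 replicate 1. At day 14 the difference from normal was -1 (adjusted p = 0.0195), just inside the 2-fold limit and not called, and it was called without normal liver replicate 1 or without PHX-D14 replicate 3.

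Nr1d2, the paralog of Nr1d1, was called at no time. It stood at 16.2, 28.3 and 13.6 FPKM in normal liver and at 13.7, 12 and 5.60 at 6 h, and the groups overlapped. Its difference at 6 h was -0.85 (adjusted p = 0.0295, under 2-fold), and it was called there without normal liver replicate 3 or without PHX-6h replicate 1. From 24 h to day 7 it lay between 12 and 22.1 FPKM in all 9 livers, with differences of -0.22 to 0.03. At day 14 it was 14.3, 7.97 and 11.9, which overlapped normal liver, with a difference of -0.69 (adjusted p = 0.144).

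Per1, which encodes a repressor of the BMAL1 complex and is also a direct target of stress hormones, was the only member called at every time. It stood at 1.78, 1.25 and 2.12 FPKM in normal liver, at 8.08, 7.78 and 9.45 at 6 h, and at 9.52, 7.45 and 14.1 at day 14. In the 9 livers between these times it lay between 5.58 and 8.48, so all 15 PHX livers were above all 3 normal ones. It rose by 1.80 at 6 h (SE 0.19, adjusted p = 4.74e-06), 1.39 at 24 h (adjusted p = 0.00012), 1.61 at day 3 (adjusted p = 8.69e-05), 1.58 at day 7 (adjusted p = 1.3e-05) and 2.03 at day 14 (adjusted p = 1.44e-05). The call held in all 16 alternative settings at each of the 5 times.

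Per2 and Per3, the other period genes, differed from Per1. Per2 stood at 2.55, 2.53 and 2.69 FPKM in normal liver and at 3.79, 5.97 and 3.33 at 6 h, without overlap, but the difference of 0.55 was not called (adjusted p = 0.206). At 24 h it was 9.98, 2.99 and 4.54 and at day 3 2.77, 2.61 and 8.69, with 1 liver of each group far above the others and differences of 0.80 and 0.50 that were not called. At days 7 and 14 all 6 livers lay between 1.79 and 3.09. Per3 stood at 2.90, 6.39 and 2.78 in normal liver and at 0.485, 0.445 and 0.326 at 6 h, and it fell by 1.75 (SE 0.45, adjusted p = 0.00474). The Per3 livers at 6 h were all below every normal liver. At 24 h Per3 was 3.23, 0.431 and 0.960, and at day 3 it was 2.99, 1.18 and 9.27. Replicate 1 lay inside the normal range at both times and day-3 replicate 3 lay above it, and neither time was called (adjusted p = 0.0826 and 0.892). Without PHX-24h replicate 1, Per3 was called at 24 h. At days 7 and 14 it was 1.18 to 2.30 in the 6 livers, under the lowest normal value, with differences of -0.66 and -0.85 that were not called.

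Cry1, the second repressor of the BMAL1 complex, was raised at 6 h and day 3. It stood at 2.76, 1.62 and 1.69 FPKM in normal liver, at 8.14, 10.3 and 7.34 at 6 h, at 6.47, 4.14 and 2.55 at 24 h, and at 7.96, 7.59 and 7.06 at day 3. Only the 24-h livers overlapped the normal ones among these times. Cry1 rose by 1.67 at 6 h (SE 0.22, adjusted p = 2.84e-05) and by 1.52 at day 3 (adjusted p = 0.000368), and its difference of 0.79 at 24 h stayed under 2-fold (adjusted p = 0.0139). At days 7 and 14 the 6 livers lay between 2.10 and 3.36, with differences of 0.22 and 0.25.

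In the positive arm, Arntl stood at 1.52, 0.543 and 1.19 FPKM in normal liver and at 3.58, 4.48 and 1.72 at day 3. The day-3 livers were all above the normal ones, replicate 3 by little. Arntl rose by 1.00 at day 3 (SE 0.29, adjusted p = 0.0189), which is at the 2-fold limit, and the call was lost without normal liver replicate 2, without PHX-D3 replicate 1 or 2, under quantile normalization, under median centring and when only the groups compared were fitted. Over the alternatives the value ran from 0.79 to 1.62. At 6 h it was 1.01, 2.71 and 3.18, which overlapped normal liver, and at 24 h 1.82, 3.68 and 1.93, which did not, with differences of 0.62 and 0.73 that were not called (adjusted p = 0.0831 and 0.0652). At day 7 it was 1.73, 1.85 and 1.87 and at day 14 0.550, 0.710 and 0.826, and the day-14 livers overlapped the normal ones. Npas2, the CLOCK-like partner of BMAL1, was at or under 0.484 FPKM in all 18 livers (1 to 114 reads, under 20 reads in 13 of them) and was not in the main test. Without the filter, its limma difference from normal liver was 0.16 or less at each time (lowest adjusted p = 0.343).

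Dbp, a D-box activator and an output gene with a strong daily rhythm in liver, showed the largest fall of the 9 members at 6 h. It stood at 32.5, 79.5 and 48.7 FPKM in normal liver and at 1.58, 1.75 and 1.4 at 6 h. It was 15.2, 2.41 and 6.49 at 24 h and 5.27, 1.97 and 22.9 at day 3. All 9 of these PHX livers were below the lowest normal one. Dbp fell by 4.32 at 6 h (SE 0.60, adjusted p = 4.08e-05), by 2.78 at 24 h (adjusted p = 0.00292) and by 2.74 at day 3 (adjusted p = 0.00434). The day-3 call was lost when only the groups compared were fitted. At day 7 it was 45.9, 39.4 and 47.2 and at day 14 53.0, 35.4 and 51.6, inside the normal range, with differences of -0.19 and -0.13.

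Tef, a second D-box activator, moved less. It stood at 21.7, 34.7 and 23.3 FPKM in normal liver and at 8.51, 11.1 and 7.41 at 6 h, without overlap. Tef fell by 1.45 at 6 h (SE 0.32, adjusted p = 0.0014). It was 28.5, 11.4 and 17.5 at 24 h and 23.2, 16.4 and 41.6 at day 3, groups that overlapped normal liver and were not called (adjusted p = 0.224 and 0.929). At days 7 and 14 the 6 livers lay between 21.1 and 33.1, with differences of -0.23 and 0.10.

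**Figure D2:**
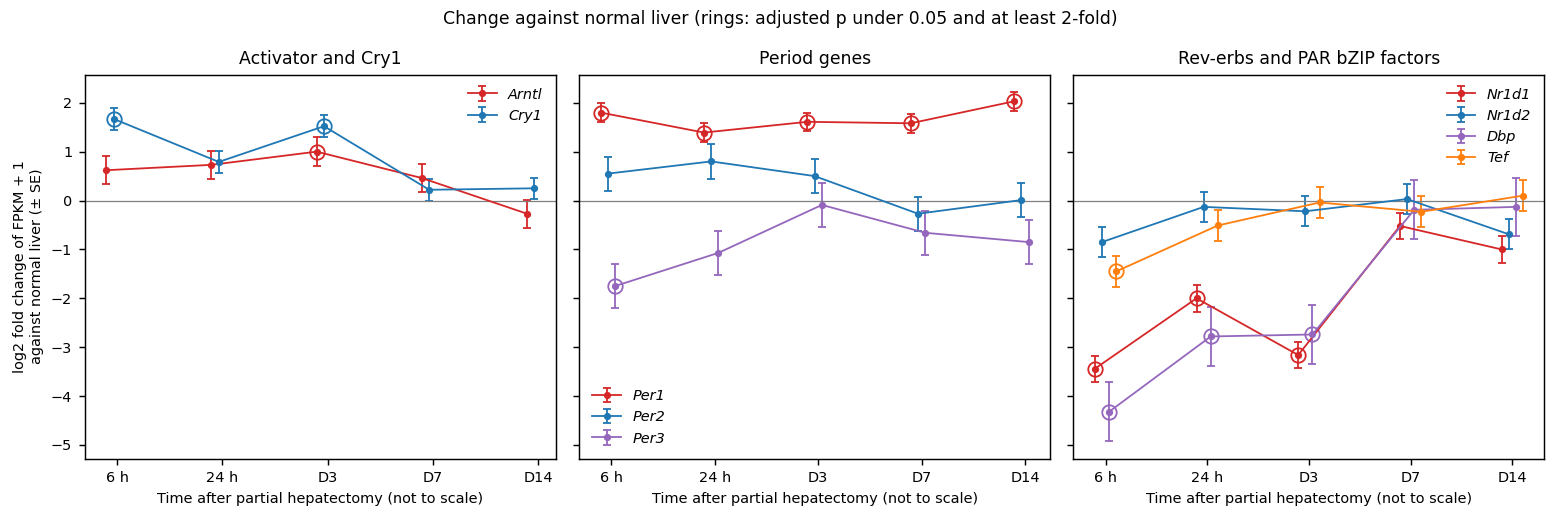
Log2 change of the 9 tested clock genes at each time after PHX against normal liver (difference of mean log2(FPKM + 1), with its standard error as a bar), where rings mark genes called changed. Nr1d1 and Dbp lie far below 0 from 6 h to day 3, and Per1 is ringed at all 5 times.

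The groups did not overlap with normal liver for 7 of the 9 members at 6 h, 5 at 24 h, 5 at day 3, 5 at day 7 and 3 at day 14, where the same was true of 64.6%, 48.7%, 39.8%, 55.8% and 43.6% of all genes. In shares of 9, these counts were above the share of all genes at 6 h, 24 h and day 3 and below it at day 14, and no test was made of this.

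Libraries labelled as 1 group differed widely for some members. The highest of the 3 livers exceeded the lowest for Dbp by 6.29 times at 24 h and by 11.6 times at day 3, against 1.26 times at 6 h and 1.20 times at day 7. Within-group SD on the log2 scale over all liver groups was 0.83 for Dbp, 0.62 for Per3, 0.48 for Per2 and 0.43 for Tef. These 4 of the 9 members were above 0.42, the value that 90% of all tested genes stayed under, and the members' median was 0.41 against 0.20 for all genes. In the cultured cells the members' median was 0.12 against 0.10, and 1 of 10 (Nr1d1) was above that table's limit of 0.16.

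The same 2 libraries stood apart for several members. PHX-24h replicate 1 held the highest Dbp, Per3, Per2 and Tef of its group and the lowest Arntl, and PHX-D3 replicate 3 did so in its group. Over the 18 livers, deviations from the group means of log2(FPKM + 1) were correlated at 0.96 for Dbp with Tef, 0.96 for Per3 with Dbp, 0.95 for Per3 with Tef, 0.84 for Per2 with Dbp and -0.75 for Arntl with Dbp. Not all members moved together: with Dbp the value was 0.56 for Nr1d2, 0.08 for Cry1, 0.06 for Per1 and 0.04 for Nr1d1. These points share library depth and dissection, and genes are not independent replicates. Over the 12 livers of the other 4 groups the values were 0.85, 0.80 and 0.85 for the first 3 pairs, 0.04 for Per2 with Dbp and -0.49 for Arntl with Dbp. Cell type markers also differed in these libraries: the hepatocyte marker sum was 65000 FPKM in PHX-D3 replicate 3 against 43000 and 35200 in the others, the biliary sum 29.9 against 49.0 and 147, and the neutrophil sum 5.89 against 12.4 and 35.2. In PHX-24h replicate 1 the neutrophil sum was 8.35 against 75.7 and 18.4, the biliary sum 37.9 against 51.2 and 197, and the stellate cell sum 88.7 against 128 and 131. The part of these differences in the clock gene values was not tested. Without PHX-D3 replicate 3 the call of Arntl and that of Dbp at day 3 both held, and without PHX-24h replicate 1 the call of Dbp at 24 h held.

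**Figure D3:**
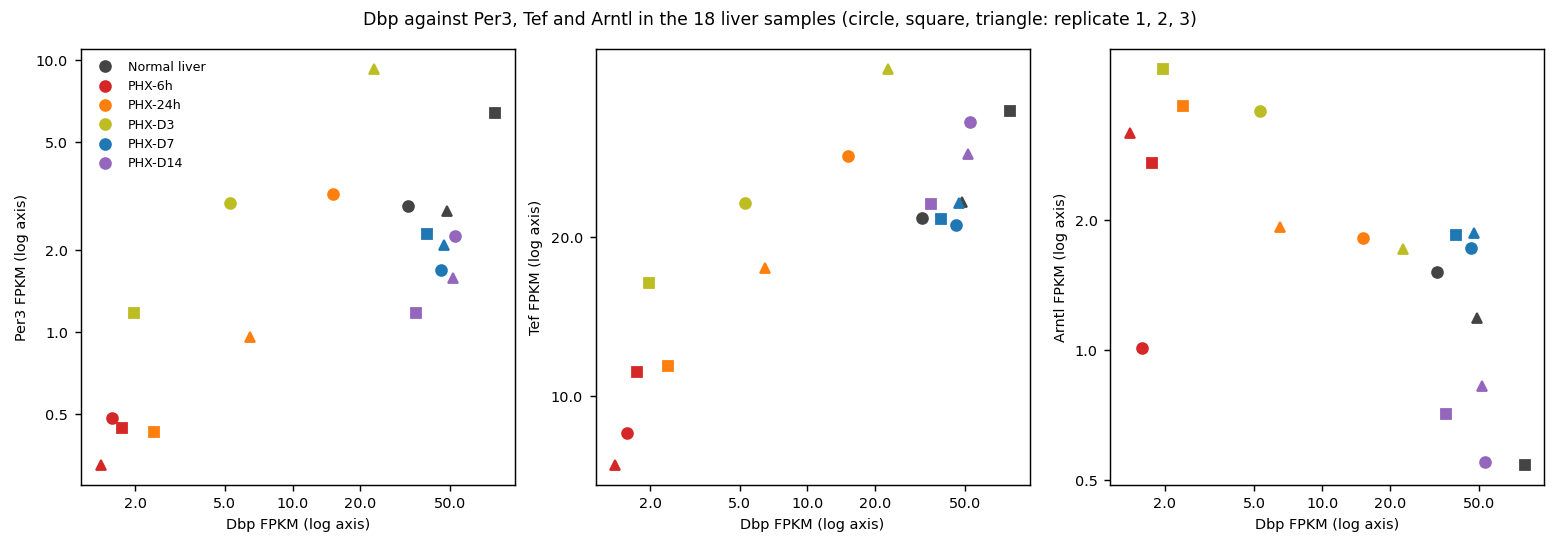
FPKM of Per3, Tef and Arntl against FPKM of Dbp in the 18 liver libraries, both on log axes, with 1 point per library, colours for groups and shapes for replicates. The 3 livers at PHX-D3 spread from 1.97 to 22.9 FPKM of Dbp and climb with it in Per3 and Tef, while Arntl in the PHX-D3 livers is lowest where Dbp is highest, at 1.72 FPKM.

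The ratio of Dbp to Arntl, 2 genes that peak at opposite times of day, put these spreads on 1 scale. Measured per length as FPKM, Dbp exceeded Arntl 21.4, 146 and 40.8 times in normal liver, and the ratio was 1.57, 0.646 and 0.439 at 6 h. It was 8.31, 0.655 and 3.36 at 24 h and 1.47, 0.440 and 13.3 at day 3. At day 7 it was 26.5, 21.3 and 25.3, and at day 14 96.4, 49.9 and 62.5. The 9 livers from 6 h to day 3 all had a lower ratio than the 9 livers of the other 3 groups.

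Whole-liver RNA mixes cell types, so fewer cells of a type and less RNA per cell cannot be told apart. The macrophage and Kupffer cell marker sum was 57.4 to 88.5 FPKM in normal liver, 19.6 to 35 at 6 h and 198 to 286 at day 7, with 5 of its 5 markers higher at day 7. The neutrophil sum was 1.59 to 6.77 in normal liver, 38.2 to 39.8 at 6 h and 54.5 to 110 at day 7, with both of the 2 markers tested higher. Of the T cell markers 3 of 3 tested were higher at day 7 (sum 7.90 to 9.17 against 1.06 to 1.66), as were 3 of 5 endothelial markers (55.2 to 83.7 against 27.8 to 33.4) and 4 of 5 red blood cell markers (238 to 310 against 87.4 to 150). Stellate cell sums were 28.6 to 45.3 at day 14 against 58.4 to 75.8, with 1 of 5 markers called lower. Biliary sums were 39.8 to 81.8 at 6 h against 26.9 to 33, with 1 of 5 markers called higher. Hepatocyte sums were 29400 to 33700 at 24 h against 50400 to 54900, with 1 of 5 markers called lower. These 3 sums thus do not stand for their markers as a set. The part of these shifts in the clock gene results was not tested.

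Of 13 tested genes from a list of other clock components, 1 rose and 3 fell at 6 h, where 16.3% of all genes were called: Nfil3, a repressor at D-box elements, rose by 1.96 (SE 0.37, adjusted p = 0.000465), and Hlf, another D-box activator, and Btrc, which marks PER proteins for breakdown, fell by 1.21 and 1.13. At 24 h, day 3 and day 14 limma called 0 of the 13, and 5 had an unadjusted p under 0.05 at each of these times. At day 7 it called Nfil3 alone, which rose. The median change of the list was 0.20 at 6 h, -0.07 at 24 h and 0.36 at day 3, against -0.28, -0.02 and 0.01 for all genes.

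Clock output genes, which carry daily rhythms into metabolism, moved in both directions. Of 12 tested, 3 rose and 3 fell at 6 h, led upwards by Alas1, the first enzyme of haem synthesis (2.01), and Nampt, which makes NAD (1.96), and downwards by Cyp7a1, the rate-limiting enzyme of bile acid synthesis (-4.19), and Elovl3, a fatty acid elongase (-2.51). At 24 h 2 rose (Lpin1 1.52, Por 1.5) and 2 fell (Upp2 -5.10, Elovl3 -2.38), and at day 3 2 rose (Por 2.10, Alas1 1.90) and 1 fell (Elovl3 -3.52). The list's median was -0.15, 0.13 and 0.40 at these times, beside the same all-gene medians. At day 7 1 rose and 1 fell, and at day 14 2 rose.

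Of 6 glucocorticoid-induced genes, 3 rose and 1 fell at 6 h. Fkbp5, a chaperone of the glucocorticoid receptor, rose by 3.05 (SE 0.34, adjusted p = 6.9e-06) and Zbtb16, a transcription factor, by 1.73, while Tsc22d3 fell by 1.27. At 24 h 2 rose (Fkbp5 2.72, Zbtb16 1.39) and Dusp1 fell by 1.14, at day 3 Fkbp5 alone rose (2.12), at day 7 2 rose, and at day 14 limma called 0, with 1 at an unadjusted p under 0.05. The list's median was 0.81 at 6 h, 0.23 at 24 h and 0.83 at day 3.

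Scaling moved the balance of liver calls but not the clock gene calls at 6 h. Of all genes called at 6 h, 29.3% were higher, and this became 52.9% under quantile normalization and 55.8% under median centring, which took the median of all genes from -0.28 to -0.04 and 0.01. The same 6 members were called under both. The share higher also moved from 88.4% to 72.4% and 74.4% at day 7, from 32.9% to 47.6% and 45.1% at day 14, and from 77.2% to 52.0% and 43.0% between 6 h and 24 h. Between 6 h and 24 h, both scalings added a fall of Cry1 to the call of Nr1d1.

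Across the 18 livers, genes whose log2 level was among the most like that of Arntl were Lgalsl (Pearson r 0.866), Plpp5 (0.862), Clpx (0.839) and Mllt4 (0.822). Those most like Dbp were Vamp5 (0.971), Atp5sl (0.966), Oxld1 (0.960), Cmtm8 (0.952) and Magix (0.952). The ranking was over 4930 tested genes whose group means spanned at least 1 on the log2 scale, and the points share groups and libraries.

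In culture, Per1, Per2 and Per3 were called higher than in fresh hepatocytes in all 4 comparisons on the deposited scale. Passaged lines and IL6-iMHs were each averaged over 4 lines there. Arntl and Cry1 were called in 0 of the 4 comparisons. Of the 10 members, 6 rose at day 3, 4 at day 14, 5 in the passaged lines averaged and 5 in the IL6-iMHs averaged, and 0 fell in these 4 comparisons. Of all genes, 66% were called at day 3 (53.9% upwards, 12.1% downwards), 62.9% at day 14 (50% and 12.9%), 59.4% in passaged lines (48.1% and 11.3%) and 32.6% in IL6-iMHs (24.8% and 7.79%). Over both directions, the members' shares were below those of all genes save in IL6-iMHs. For rises alone, the members' share was below that of all genes at day 14 and above it in the other comparisons. No test was made of either. Libraries did not overlap with hepatocytes for 10, 10, 6 and 7 members, against 92.1%, 93.8%, 72.5% and 56.5% of all genes. The scale matters here: the 20 highest genes held 33.3 to 34.8% of all FPKM in hepatocytes against 15.5 to 16.5% at day 3, and the median of all genes was 1.14 higher at day 3, 1.00 at day 14, 0.93 in passaged lines and 0.46 in IL6-iMHs. The members' medians were 1.51, 0.85, 1.06 and 1.07. Quantile normalization brought the all-gene medians to 0.11, 0.09, 0.13 and 0.01, and the share of calls that were higher from 81.6%, 79.4%, 81.0% and 76.1% to 53.6%, 52.8%, 54.5% and 54.0%. Median centring brought these shares to 35.5%, 36.8%, 35.5% and 38.5%. The member counts moved as well. Under quantile normalization 2 rose and 1 fell (Dbp) at day 3, 1 rose and 2 fell (Cry1 and Dbp) at day 14, 1 rose in passaged lines and 3 in IL6-iMHs. Under median centring 2 rose at day 3, 1 rose and 3 fell (Cry1, Dbp and Tef) at day 14, 1 rose in passaged lines, and 3 rose and 1 fell (Arntl) in IL6-iMHs. All comparisons with hepatocytes share the same 3 control libraries. The hepatocyte marker sum was 70800 to 76400 FPKM in hepatocytes, 587 to 705 at day 3, 1820 to 9340 in the passaged lines and 59000 to 80300 in IL6-iMHs, and the biliary marker sum was 3.84 to 3.94, 355 to 529, 2700 to 11000 and 200 to 1410. Tat was listed at 0 in at least 1 cell library, while Hnf4a was at 134 FPKM or more in all 33. The neutrophil marker sum was 86.4 to 92.3 in IL6-iHPCs-mouse-1 (P35), 27.9 to 36.6 in IL6-iHPCs-clone-1 and at most 7.79 in the other groups. Of its 5 markers 2 were tested, and in passaged lines against hepatocytes 1 of these was called higher and 1 lower. The sum thus does not stand for its markers as a set. The part of these differences in the clock gene values was not tested.

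**Figure D4:**
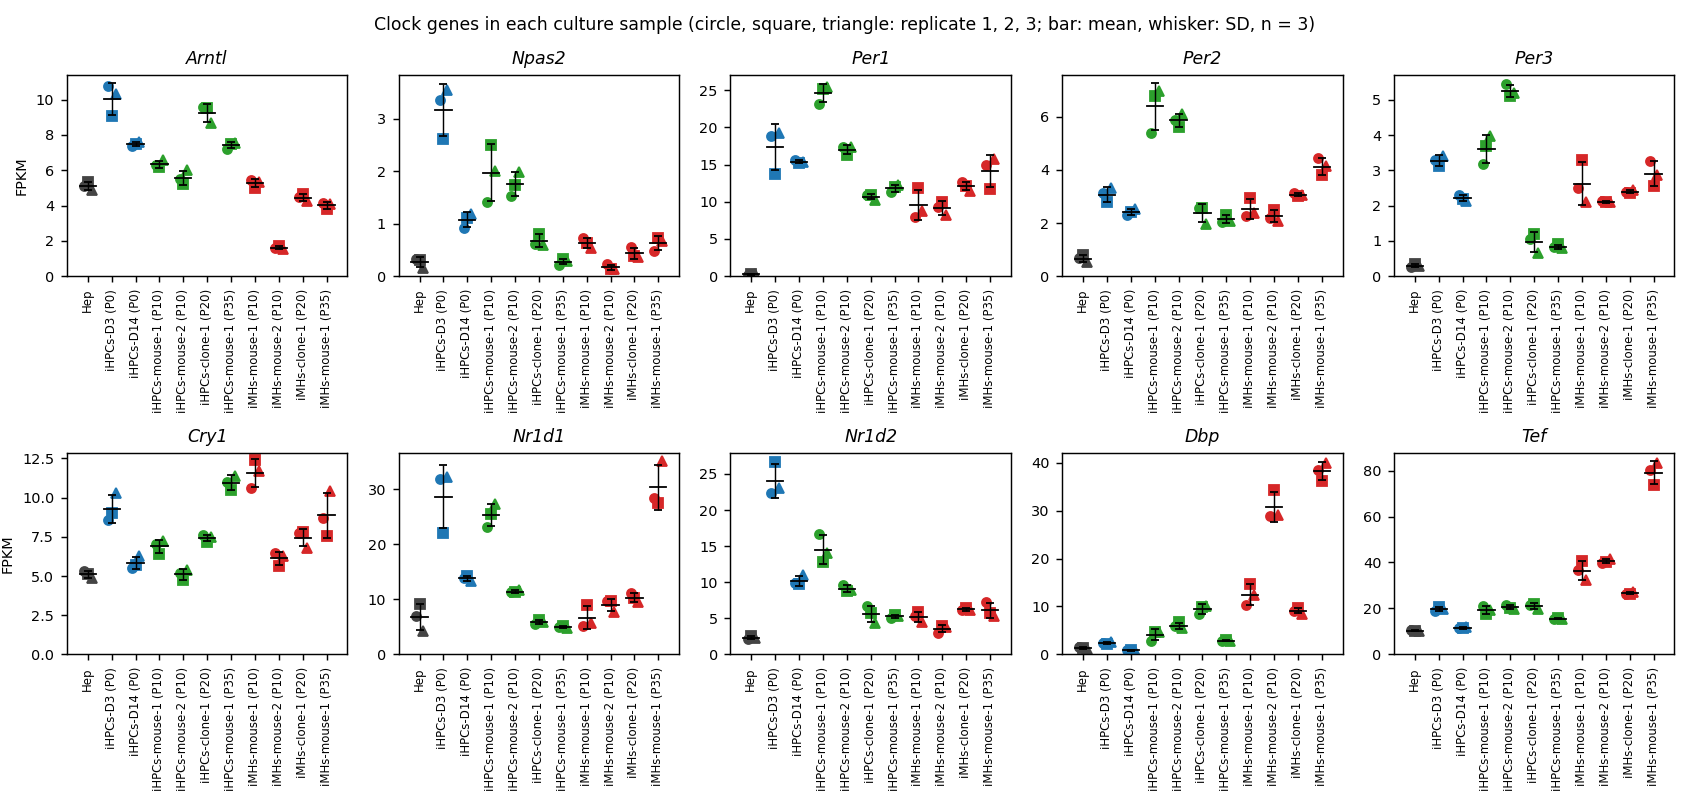
FPKM of the 10 clock genes in the 33 cell libraries on linear axes, with bars for the mean and whiskers for the SD (n = 3), hepatocytes in black, the first culture in blue, passaged IL6-iHPCs in green and IL6-iMHs in red. Per1 is at or under 0.288 FPKM in the 3 hepatocyte libraries and at 7.99 or more in all 30 others, and Dbp and Tef are highest in red groups.

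Per1 stood at 0.187, 0.288 and 0.241 FPKM in hepatocytes, at 18.9, 13.8 and 19.3 at day 3, and at 15.6, 15.2 and 15.3 at day 14. In the 12 libraries of passaged IL6-iHPCs it lay between 10.3 and 25.5, and in the 12 of IL6-iMHs between 7.99 and 15.8. The hepatocytes did not overlap with any culture. Per1 rose by 3.87 at day 3 (SE 0.11, adjusted p = 7.06e-24), by 3.73 at day 14, by 3.71 in passaged lines and by 3.28 in IL6-iMHs, and it was the only member called in all 4 comparisons under every alternative tried, with values down to 2.42, 2.41, 2.47 and 2.58. Normal liver, in a table that was normalized separately, had 1.25 to 2.12 FPKM.

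The other period genes were lower in level. Per2 was 0.667, 0.786 and 0.529 in hepatocytes and 3.12, 2.78 and 3.31 at day 3, and its rise of 1.29 turned to -0.22 under quantile normalization and -0.16 under median centring. Per3 was 0.267, 0.348 and 0.283 in hepatocytes and 3.29, 3.13 and 3.42 at day 3, a rise of 1.72 that was not called under either scaling (lowest value 0.26). In both cases no hepatocyte library overlapped the day-3 cells. Among passaged lines, Per2 was 5.39 to 6.97 in the 6 libraries at P10 and 1.98 to 2.58 in the 6 of clone-1 (P20) and mouse-1 (P35). Per3 was likewise 3.19 to 5.46 against 0.644 to 1.19, so the P10 lines lay above the later ones for both genes without overlap. Clone-1 differs from the P10 lines in line as well as passage. The scale differed too: the 20 highest genes held 24.2 to 27.6% of all FPKM in the P10 lines and 10.6 to 13.5% in the later ones. The part of this in the Per2 and Per3 values was not tested.

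Nr1d2 stood at 2.16, 2.56 and 2.27 FPKM in hepatocytes, at 22.4, 26.7 and 23.0 at day 3, and at 9.92, 9.71 and 11 at day 14. It was the second member whose day-3 rise of 2.91 (SE 0.11, adjusted p = 1.71e-20) held under all alternatives, down to 1.45. Nr1d1 stood at 6.92, 9.16 and 4.30 in hepatocytes and at 31.8, 22.0 and 32.3 at day 3, a rise of 1.96 (adjusted p = 3.72e-12) that was not called under the 2 scalings, where its lowest value was 0.50. Hepatocytes and day-3 cells did not overlap for either receptor.

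Of the positive arm, Npas2 rose at day 3 while Arntl did not reach 2-fold. Npas2 was 0.320, 0.315 and 0.156 in hepatocytes and 3.35, 2.61 and 3.55 at day 3, a rise of 1.72 (adjusted p = 4.73e-16) that was not called under the 2 scalings. Arntl was 5.09, 5.31 and 4.89 in hepatocytes and 10.8, 9.05 and 10.3 at day 3, a difference of 0.85 that turned negative, to -0.60 at the lowest, when rescaled. In both cases the day-3 cells lay above the hepatocytes. Npas2 was not called at day 14 (0.71), in passaged lines (0.69) or in IL6-iMHs (0.20), and it overlapped hepatocytes in the last of these and in passaged lines. Arntl was 0.48, 0.40 and -0.41 in these comparisons, with the same overlaps. Over the 11 groups Arntl ran from 10 ± 0.888 (SD, n = 3) at day 3 down to 1.61 ± 0.0673 in IL6-iMHs-mouse-2, and of the neighbours in this order, day 3 overlapped clone-1 IL6-iHPCs, day 14 overlapped mouse-1 IL6-iHPCs at P35, and mouse-2 IL6-iHPCs, mouse-1 IL6-iMHs at P10 and hepatocytes overlapped in turn. Cry1 was 5.33, 5.10 and 4.89 in hepatocytes and 4.73 to 12.4 in the 30 cultured libraries, and it was called in none of the 4 comparisons on the deposited scale.

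Dbp and Tef were the members called higher with maturation in the mean over the lines. Dbp stood at 1.51, 1.43 and 1.10 FPKM in hepatocytes, at 2.30, 2.26 and 2.62 at day 3, and at 0.973, 0.822 and 0.803 at day 14. In IL6-iMHs it was 10.3, 14.7 and 12.4 for mouse-1 at P10, 28.8, 34.3 and 29.0 for mouse-2, 9.13, 9.59 and 8.51 for clone-1, and 38.5, 36.2 and 39.9 for mouse-1 at P35. Every IL6-iMH library was above every hepatocyte library, and the IL6-iMHs of mouse-2 and of mouse-1 at P35 were above all other groups. Dbp rose by 3.11 in IL6-iMHs against hepatocytes (SE 0.10, adjusted p = 1.05e-22). Against IL6-iHPCs of the same lines it rose by 1.72 as a mean over the lines (SE 0.06, adjusted p = 2.07e-21). That mean includes clone-1, where Dbp did not rise (-0.06). Tef was 10.5, 10.1 and 10.4 in hepatocytes, 15.3 to 22.1 in passaged IL6-iHPCs and 26.2 to 83.3 in IL6-iMHs, groups that did not overlap, and it rose by 1.93 and 1.11 in the same comparisons (adjusted p = 3.31e-24 and 2.68e-23). Within single lines, the change of Tef with maturation reached 2-fold only in mouse-1 at P35 (2.28). The calls of Dbp and Tef in both comparisons held under every alternative tried, down to 2.17 and 1.67 for Dbp and 1.24 and 1.09 for Tef. They were the only 2 of 10 members called between IL6-iMHs and IL6-iHPCs, where 28.1% of all genes were called (6.68% upwards, 21.4% downwards), and of the 10 members only Tef did not overlap between the 12 IL6-iMH and the 12 IL6-iHPC libraries (22.1% of all genes). On this contrast the median of all genes was -0.40, and the share of calls that were higher went from 23.8% to 52% under quantile normalization and 70.4% under median centring.

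**Figure D5:**
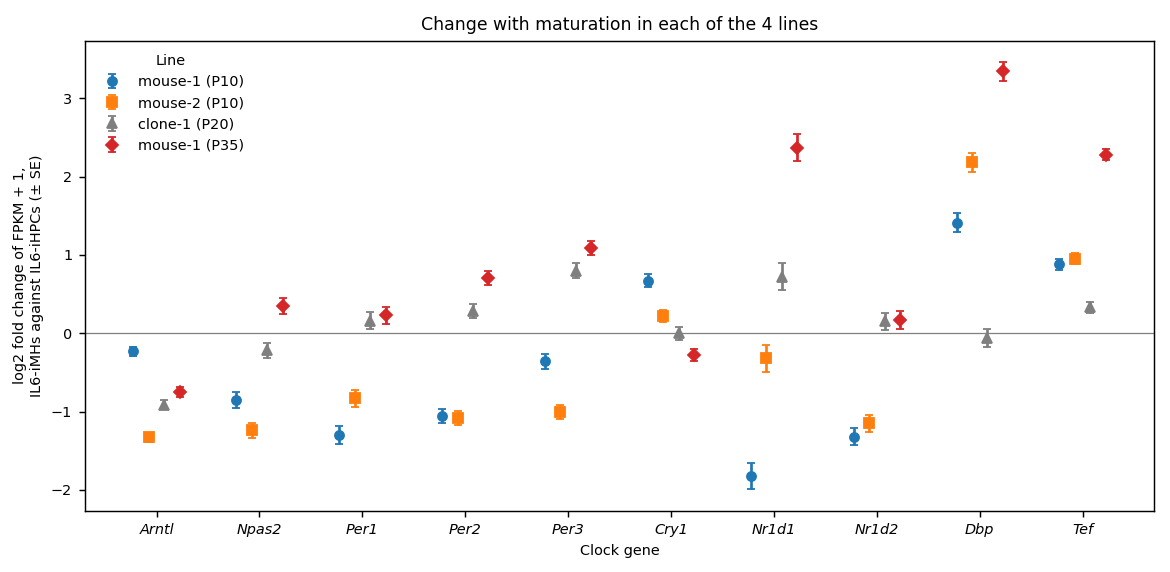
Log2 change with maturation (IL6-iMHs against IL6-iHPCs of the same line) of each clock gene in the 4 lines, as a difference of mean log2(FPKM + 1) with its standard error. Nr1d1 runs from -1.82 in mouse-1 at P10 to 2.37 in mouse-1 at P35, and clone-1 lies near 0 for Dbp.

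Maturation changes differed between lines for all 10 members by the limma F test of the difference, as they did for 96.3% of all genes tested, so the count says little of the members themselves. The study calls the libraries of a group technical repeats without saying how many cultures they came from, so a difference between lines may be one between cultures. For Nr1d1 the change was -1.82 in mouse-1 at P10, -0.32 for mouse-2, 0.72 for the clone-1 libraries and 2.37 for mouse-1 at P35 (F test adjusted p = 5.84e-15). Behind this, Nr1d1 went from 23.2, 25.6 and 27.3 to 5.18, 9.04 and 5.71 FPKM in mouse-1 at P10, and from 5.05, 5.21 and 4.81 to 28.4, 27.6 and 35.1 in mouse-1 at P35. The 2 passages of the same line thus moved in opposite directions, each without overlap. For Dbp the change was 1.41, 2.18, -0.06 and 3.34 in the same order, and for Tef 0.88, 0.95, 0.33 and 2.28. Arntl lay below 0 in all 4 lines (-0.23, -1.33, -0.91 and -0.75) and was called only in mouse-2. Within lines, 5 of 10 members were called in mouse-1 at P10 (25% of all genes), 4 in mouse-1 at P35 (45.3%), 6 in mouse-2 (39.9%) and 0 in clone-1 (23.6%). In clone-1 limma gave an unadjusted p under 0.05 for 6 members, all with changes under 2-fold.

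The libraries labelled clone-1 before and after maturation did not match each other. Genes on the Y chromosome had 6575 to 9095 reads in the IL6-iHPC libraries of clone-1 and 0 in its IL6-iMH libraries, while the lines of mouse-1 and mouse-2 had 0 to 2 reads before maturation and hepatocytes had 994 to 1550. They had 13066 to 18444 reads at day 3, 9185 to 10803 at day 14 and 0 in the IL6-iMHs of every line. Comparisons of IL6-iMHs and of the passaged mouse lines with hepatocytes thus set cells without Y-linked reads against cells with them. The part of this in the clock gene values was not tested. Without both clone-1 groups, the members called stayed 5 for passaged IL6-iHPCs, 5 for IL6-iMHs, 2 for maturation and 10 for the difference between lines, with the same genes called each time.

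Over the 33 cell libraries, the ratio of Dbp to Arntl was 0.297, 0.269 and 0.225 in hepatocytes and 0.106 to 0.132 at day 14. The IL6-iMH lines differed widely: the ratio was 17.9 to 20.4 in mouse-2 and 9.24 to 9.81 in mouse-1 at P35. It was only 1.89 to 2.93 in IL6-iMHs of mouse-1 at P10 and 2.0 to 2.07 in those of clone-1. In the liver table, which was normalized separately, the ratio was 21.4 or more in normal liver. The genes most like Dbp over these libraries were Tef (r 0.935), Pla2g12a (0.900), Prdx6 (0.895), Bsg (0.894) and Cidec (0.893), out of 11775 genes. Those most like Arntl were Rap1a (0.939), Mterf3 (0.910), Eif3j1 (0.904), Prkd3 (0.903) and Trmt10c (0.901).

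The other lists in culture are given on the deposited scale, on which 66% of all genes were called at day 3, 32.6% in IL6-iMHs and 28.1% with maturation. Of 14 tested clock components, 9 rose and 1 fell at day 3, led by Csnk1e, a kinase that marks PER proteins (4.66), and Rora, the activator at RORE elements (3.37). In IL6-iMHs 7 rose and 1 fell, with Csnk1e at 2.5, Cry2 at 1.68 and Hlf at -1.82. Of 12 clock output genes, 4 rose and 5 fell at day 3 (Noct 4.23, Nampt 2.69, Upp2 -6.62) and 4 rose and 6 fell in IL6-iMHs (Lpin1 4.0, Usp2 3.05, Upp2 -6.27). Elovl3 was 254 FPKM in hepatocytes and was listed at 0 at day 3 and in all IL6-iMHs. Of 6 glucocorticoid-induced genes, 5 rose at day 3 (Sgk1 6.28, Zbtb16 3.64) and 4 in IL6-iMHs (Sgk1 6.79, Fkbp5 6.06), and none fell. With maturation, 0 components rose and 4 fell, 4 output genes rose and 1 fell, and limma called 0 glucocorticoid-induced genes, with 5 of 6 at an unadjusted p under 0.05. List medians at day 3 were 1.95, -0.17 and 1.89, against 1.14 for all genes, and in IL6-iMHs 0.92, -0.48 and 2.29, against 0.46.

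The day 7 table held Npas2 alone. It stood at 0.617, 0.518 and 0.485 FPKM in primary hepatocytes, at 0.379, 0.561 and 0.415 in hepatocytes kept for 7 days in the same medium without IL6 (HCM-Hepa-D7), and at 0.915, 0.760 and 1.10 with IL6 (IL6-iHPCs-D7). The IL6 cells lay above both other groups, which overlapped each other. Npas2 did not pass the filter. Without the filter, limma gave a difference of 0.32 with IL6 against primary hepatocytes (adjusted p = 0.00319) and 0.40 against HCM-Hepa-D7 (adjusted p = 0.00204), both under 2-fold.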

How the data were processed

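RNA-seq of mouse livers after PHX and of cultured hepatocytes was analysed from the FPKM tables that the authors deposited. Per the labels, libraries were made from polyA RNA, and the submitters' processing notes name TopHat 1.4.1, Cufflinks 1.3.0 and build mm10. The unit FPKM was read from the methods and the values. FPKM makes genes share 1 total, so a few very abundant genes lower all others. Whole reads could be recovered from the FPKM steps, which gave the depth of each library. Of the genes, 100% gave whole reads, within 0.02 of a read plus a margin that grew with the number of reads. Tables normalized separately were tested apart.

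Limma 3.58.1 (R 4.3.3, with its trend option) was fitted to log2(FPKM + 1) over all groups of a table, with Benjamini-Hochberg adjustment across every tested gene (11114 liver, 12328 cells, 276 day 7). Passaged lines and IL6-iMHs were averaged over lines with equal weight. Figures were drawn with matplotlib 3.10.9 in Python 3.11.15. The scripts were tested on simulated data. The members, lists of related genes, markers and motifs were chosen with earlier results of these data known. All members were named, and from each list the 2 largest rises and falls past the threshold in 5 comparisons (PHX-6h, PHX-24h, PHX-D3, IL6-iHPCs-D3, IL6-iMHs). Alternatives covered the pseudocount, filters, scaling, thresholds, the groups fitted, a replicate block, each library left out, limma voom on recovered reads and, added after seeing the data, the clone-1 line left out. Some genes that these rules name are not reported here.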

Additional observations from a re-analysis of the deposited data

Results flagged for a closer look

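The change with maturation, IL6-iMHs against the IL6-iHPCs of the same line, differed between the 4 lines for each of the 10 clock genes by limma's F test of that difference. The range over the lines on the log2 scale was 4.19 for Nr1d1, 3.39 for Dbp, 2.09 for Per3, 1.96 for Tef, 1.78 for Per2, 1.58 for Npas2, 1.53 for Per1, 1.48 for Nr1d2, 1.10 for Arntl and 0.95 for Cry1. The adjusted p ran from 8.32e-17 for Tef to 1.32e-07 for Cry1, and 96.3% of all genes passed the same test. Per1, Per2, Per3, Nr1d1 and Nr1d2 were below 0 in both P10 lines and above 0 in clone-1 and in mouse-1 at P35. The values above 0 were small for Per1 (0.16 and 0.23) and Nr1d2 (0.15 and 0.17). Mouse-1 was sampled at P10 and P35 and both mouse lines at P10, but with technical repeats alone in each of these groups, passage and culture cannot be told apart. Clone-1 differs from the others in line and passage and holds the mismatched libraries.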

How the results depend on the processing

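Of 2179 single-gene values under the alternatives, 2049 kept their direction and side of the threshold or were never called (68 uncalled ones changed sign), 31 lost their call, 90 gained one and 9 reversed. The reversals were all in culture: at day 3 Dbp was -1.04 and Per2 -0.22 under quantile normalization and Per2 -0.16 under median centring, and at day 14 Cry1 was -1.11 and Per2 -0.34 under quantile normalization and Cry1 -1.15, Per2 -0.27, Tef -1.16 and Per3 0.00 under median centring.

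Counts of clock genes called moved by over 1.5 times as follows, and the cause was not tested. PHX-D14 gave 2 with a pseudocount of 0.1, no fold threshold, a 1.5-fold threshold or limma voom. PHX-24h against PHX-6h gave 4 with a pseudocount of 0.1, 3 without a fold threshold, at 1.5-fold or with voom, and 2 under either scaling. PHX-D3 gave 3 when only the groups compared were fitted, and PHX-D3 against PHX-24h gave 0 there, where no gene at all was called, and 2 without a fold threshold or at 1.5-fold. IL6-iHPCs-D3 gave 3 under quantile normalization, 2 under median centring and 10 without a fold threshold. IL6-iHPCs-D14 gave 9 and passaged lines 10 without a fold threshold, and passaged lines 1 under either scaling. IL6-iMHs against hepatocytes gave 3 under quantile normalization, 10 without a fold threshold and 8 at 1.5-fold, and maturation 10 without a fold threshold and 4 with voom.

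Leaving out each library in turn gave 6 to 7 at 6 h, 3 to 4 at 24 h, 4 to 5 at day 3, 1 at day 7, 1 to 2 at day 14 (2 without normal liver replicate 1 or PHX-D14 replicate 3), 1 to 3 for 24 h against 6 h (more without PHX-6h replicate 2 or PHX-24h replicate 1 or 2) and 0 to 2 for day 3 against 24 h (0 without PHX-D3 replicate 1, more without PHX-24h replicate 1 or PHX-D3 replicate 2). In culture it gave 6 at day 3, 3 to 5 at day 14, 5 for passaged lines, 5 for IL6-iMHs, 2 for maturation and 10 for the difference between lines. Npas2, left out of the liver and day 7 tests by the filter, was called in none of them without it. Same-numbered libraries deviated together no more than others on average (mean r -0.03 in liver, -0.015 in cells). Single pairs of groups ran from -0.299 to 0.386 in liver and from -0.536 to 0.573 in cells. A mean over pairs cannot show whether particular groups were paired, and this was not tested. The replicate block left every count as it was, with 6 at 6 h. Over all genes, limma voom on the recovered reads called 3025 at 6 h against 1810, 1389 against 878 at 24 h, 1084 against 647 at day 3, 1559 against 982 at day 7, 756 against 331 at day 14, 6479 against 4020 in IL6-iMHs and 5437 against 3459 with maturation.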
